A study of Mus musculus with 4 samples.

Results

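The 10 genes examined encode antibody chains or their partner: the heavy constant genes Ighm, Ighd and Igha, the light constant genes Igkc, Iglc1, Iglc2 and Iglc3, the light variable genes Iglv1 and Igkv8-24, and Jchain. They were taken by symbol from the 32285 genes of the count matrices, and all 10 were present. Their UMI counts (unique molecular identifiers, 1 per captured RNA molecule) were read in B cells, defined as barcodes with at least 3 UMIs of Cd79a, Cd79b and Ms4a1 together, and in barcodes without any UMI of these 3 genes. By this rule 7304 of 132644 barcodes within the quality limits were B cells.

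The cells came from ascites of female FVB mice, collected 6 weeks after intraperitoneal injection of Br-Luc cells, a mouse ovarian tumor line that grows in immunocompetent hosts. All mice received a locked nucleic acid (LNA) siRNA in jetPEI nanoparticles, either a control sequence (siCont, 2 libraries) or one against Fxr1 (siFXR1-LNA, 2 libraries). Ascites of several mice was pooled for each sample and red cells were lysed, so a library is a pool, animals cannot be separated, and p-values measure only the spread between pools. The study asked what FXR1 silencing changes in the cells of ascites.

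Each B cell joins a heavy variable segment to Ighm, and by alternative splicing of the same transcript also to Ighd, so naive follicular B cells carry IgM and IgD. B-1 cells, which are common in the peritoneal cavity, carry much IgM and little IgD. Class switching replaces these constant genes by an Ighg gene, Ighe or Igha. The light chain is kappa, from an Igkv segment and Igkc, or lambda, from an Iglv segment and an Iglc gene, and 1 B cell normally uses only 1 of them. In mice kappa predominates. Plasma cells secrete antibody and express Jchain, which links IgM and IgA units into polymers.

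In the mouse build GRCm38 (GENCODE vM21) the heavy constant genes lie on the minus strand of chromosome 12, Igha at 113254830-113260236, Ighd at 113406604-113416324 and Ighm at 113418558-113422730. Igkc, a single exon, is at 70726435-70726966 on the plus strand of chromosome 6, within the span of the noncoding gene Gm30211 on the same strand. Igkv8-24 is at 70216858-70217421 on the minus strand of that chromosome and has 2 exons. On the minus strand of chromosome 16 lie Iglc1 at 19061618-19062071, Iglc3 at 19065230-19065681, Iglv1 at 19085017-19085500 and Iglc2 at 19198396-19200351. The antisense gene 2010309G21Rik (19051367-19106749) overlaps Iglc1, Iglc3 and Iglv1. Jchain is at 88519809-88527891 on the minus strand of chromosome 5.

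Several of these genes are close copies, so the exactness of their counts depends on few bases. The coding sequences of Iglc2 and Iglc3 differed at 11 of 314 aligned bases (96.5% identity), whereas Iglc1 shared 73.2% with Iglc2. The stretches of 120 bases from the 3′ part of the constant exon are shown 5′ to 3′, with capitals at the 39 positions where the 3 genes are not all alike.
Iglc2: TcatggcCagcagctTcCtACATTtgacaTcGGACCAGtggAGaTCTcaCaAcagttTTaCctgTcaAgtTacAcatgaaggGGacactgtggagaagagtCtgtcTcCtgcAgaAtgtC
Iglc3: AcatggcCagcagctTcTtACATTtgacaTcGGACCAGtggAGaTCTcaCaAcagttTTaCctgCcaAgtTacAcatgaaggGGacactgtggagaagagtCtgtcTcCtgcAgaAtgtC
Iglc1: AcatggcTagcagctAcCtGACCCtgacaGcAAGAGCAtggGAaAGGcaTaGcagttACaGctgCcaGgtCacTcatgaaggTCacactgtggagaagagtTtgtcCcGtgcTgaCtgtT
Within this stretch Iglc2 and Iglc3 differed at 3 positions and Iglc2 and Iglc1 at 38. No window of 90 bases was shared by the coding sequences of any pair of the 3 genes. Iglv1 differed from Iglv2 at 11 of 351 bases (96.9% identity), and 5.73% of their windows of 90 bases were identical. Their first 120 coding bases, shown because Iglv1 is counted apart from Iglv2, hold 6 of these differences, in capitals.
Iglv1: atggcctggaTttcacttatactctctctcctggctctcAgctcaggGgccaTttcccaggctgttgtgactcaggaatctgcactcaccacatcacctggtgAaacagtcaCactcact
Iglv2: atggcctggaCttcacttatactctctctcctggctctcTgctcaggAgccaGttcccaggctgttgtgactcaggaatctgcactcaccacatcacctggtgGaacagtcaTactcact
Igkv8-24 had 91.0% identity with its nearest relative among 99 Igkv genes, Igkv8-30, and shared no window of 90 bases with it. Its start is shown beside that of Igkv8-30, with the 16 differing bases in capitals.
Igkv8-24: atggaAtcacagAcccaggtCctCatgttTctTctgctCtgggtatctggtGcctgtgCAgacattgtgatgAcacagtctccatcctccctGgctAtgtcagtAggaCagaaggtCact
Igkv8-30: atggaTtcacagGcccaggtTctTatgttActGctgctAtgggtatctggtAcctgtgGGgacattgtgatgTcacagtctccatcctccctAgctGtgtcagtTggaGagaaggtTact
All of these sequences are those of the reference strain in GENCODE vM21, and those of FVB mice were not compared.

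B cells were 3730 and 2479 barcodes in the siCont libraries (10.3% and 9.87% of barcodes) and 499 and 596 in the libraries labelled siFXR1-LNA (0.918% and 3.53%). Their median depth was 2396 to 3084 UMIs. Their identity was checked with genes outside the rule: Pax5, a B lineage factor, reached 160 to 258 CPM (UMIs of the gene in 1000000 UMIs) in B cells and 1.24 to 2.44 CPM in barcodes without B marker UMIs, and Cd22, Ebf1 and Bank1 were also far higher in B cells. Between 27.3% and 71.8% of B cells also held at least 3 UMIs of another marker class or 30% hemoglobin UMIs, most often mast cell genes in siCont replicate 1 (2020 of 3730). Calls of members that change without such barcodes are given beside the test, and 8238 barcodes occurred in more than 1 library. The B cells labelled siFXR1-LNA did not hold less Fxr1 (93.6 and 77.6 CPM) than the siCont B cells (55.7 and 48.0 CPM), so the groups are named by their labels.

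Ighm, the constant gene of IgM, was found in most B cells of every library. Its level was 1034 and 1681 CPM in the 2 siCont libraries, and 1821 CPM (replicate 1) and 901 CPM (replicate 2) under siFXR1-LNA. At least 1 UMI was seen in 81.1%, 89.6%, 82.8% and 81.2% of B cells. The spread within each group was as wide as that between them, and the groups overlapped.

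Ighd, the constant gene of IgD, reached 160.0 and 297 CPM with siCont and 245 and 294 CPM with siFXR1-LNA. Ighd was lowest in siCont replicate 1, and the values of the groups overlapped. For each 100 Ighm UMIs there were 15.5 (95% exact binomial interval 14.8 to 16.2) and 17.7 (16.97 to 18.4) Ighd UMIs in siCont, and 13.5 (12.0 to 15.03) and 32.6 (29.8 to 35.7) in siFXR1-LNA. The highest ratio, of siFXR1-LNA replicate 2, stood outside the intervals of the other libraries, while siFXR1-LNA replicate 1 was the lowest. Without the Jchain-rich barcodes described further on the ratios were 18.0, 22.6, 18.6 and 40.7, with siCont replicate 1 the lowest. Group means were 16.6 ± 1.54 and 23.1 ± 13.6 (SD, n = 2 each), with an exact permutation p of 1. These intervals, like those that follow, cover counting error only, and UMIs of 1 barcode are not independent draws.

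Counted per cell after thinning each B cell to 1000 UMIs, Ighd was detected in 17.9%, 33.0%, 24.6% and 29.3% of B cells of siCont replicates 1 and 2 and siFXR1-LNA replicates 1 and 2. Without thinning the shares were 35.6%, 57.5%, 45.9% and 56.4%. In barcodes with T cell markers, which should lack the gene, the thinned shares were 0.610%, 0.112%, 0 of 100 (which allows up to 3.00%) and 0.244%, at median depths of 2012 to 2754 UMIs. Thinned Ighm was detected in 53.7% to 66.8% of B cells and in 2.93% to 5.93% of the barcodes with T cell markers. Ighd-positive shares of the groups overlapped, and siCont replicate 1 was again the lowest.

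Split by this thinned Ighd detection, the B cells differed in genes that the split did not use. Zbtb32 and Fcrl5, both known from B-1 cells, were higher in Ighd-negative cells in 4 of 4 libraries. For Zbtb32 this rested on 7 against 2 UMIs in siFXR1-LNA replicate 1 (18.7 against 16.4 CPM) and 10 against 0 in replicate 2. Fcrl5 had 26 against 6 and 19 against 5 UMIs in these 2 libraries. Fcrl5 stood at 95.1, 115, 69.5 and 45.7 CPM in Ighd-negative cells and at 38.0, 43.6, 49.2 and 29.1 CPM in Ighd-positive cells. The other B-1-type genes, Bhlhe41, Spn, Cd5 and Ctla4, were not higher on the same side in all 4 libraries, and each of them rested on 189 UMIs or fewer. Among the follicular-type genes, Ccr7 and Cxcr5, chemokine receptors of lymphoid tissue, Satb1, a chromatin organizer, and Fcer2a, the receptor CD23, were higher in Ighd-positive cells in every library, while Cr2 and Zfp318 were so in 3 of 4. For Fcer2a this rested on 1 UMI in each class in siFXR1-LNA replicate 1. Ccr7 stood at 147, 300.5, 73.8 and 157 CPM in Ighd-positive cells against 87.8, 152, 42.8 and 79.3 CPM. For Cxcr5 the gap was small, 24.6 against 24.1 CPM in siFXR1-LNA replicate 1 and 64.0 against 62.5 CPM in replicate 2. Mzb1, a chaperone of antibody assembly, was higher in Ighd-negative cells in 4 of 4 libraries, by 393 against 310.0, 537 against 421, 289 against 131 and 332 against 267 CPM. Among the plasma cell genes Sec11c and Edem1 were also higher in Ighd-negative cells in 4 of 4 libraries, while Xbp1, Prdm1 and Sdc1 were higher in each class in 2 libraries. General B cell genes parted the classes too, as Cd79a, Cd79b and Ebf1 were higher in Ighd-positive cells and Ms4a1 in Ighd-negative cells in 4 of 4 libraries. Because the split uses a gene of the same cells, these values are a description with no test.

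**Figure D1:**
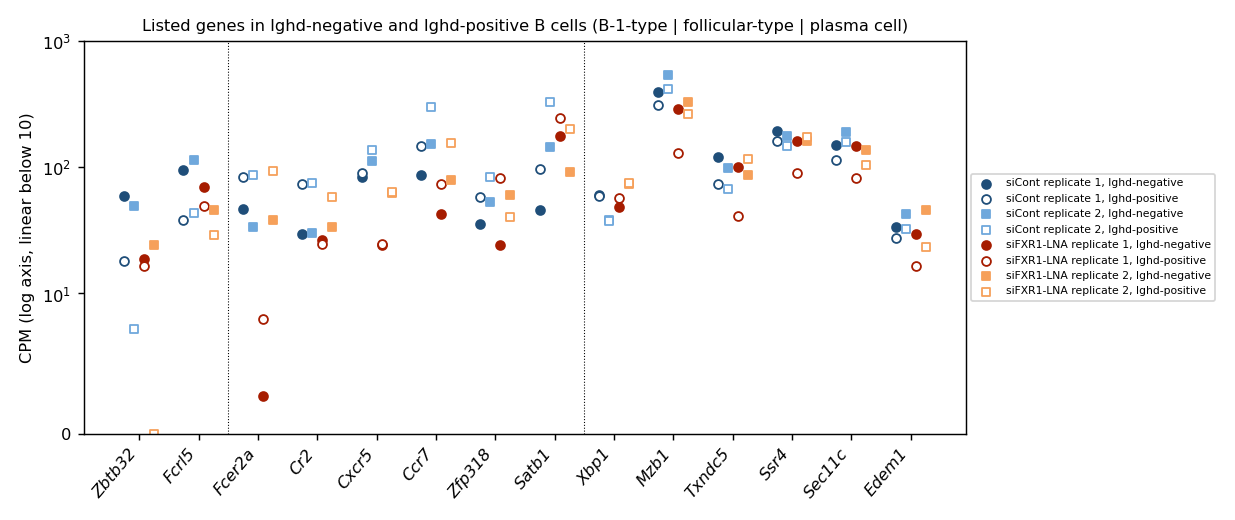
Genes shown from the B-1-type, follicular-type and plasma cell lists, each with at least 250 UMIs, in CPM (log axis, linear below 10), in Ighd-negative (filled) and Ighd-positive (open) B cells thinned to 1000 UMIs, 1 symbol per library. Ccr7 and Satb1 lie higher in the Ighd-positive cells of each library, and Fcrl5, Zbtb32 and Mzb1 in the Ighd-negative cells.

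Igha, the constant gene of IgA, was a small part of the heavy chain. It reached 21.8 and 20.3 CPM in the siCont libraries (270 and 195 UMIs) and 8.76 and 7.48 CPM with siFXR1-LNA (13 and 16 UMIs). Both siCont values lay above both siFXR1-LNA values. Igha made up 1.69% (1.497% to 1.90%) and 0.965% (0.835% to 1.11%) of heavy constant UMIs in siCont and 0.414% (0.220% to 0.706%) and 0.594% (0.340% to 0.963%) in siFXR1-LNA. The exact permutation p was 0.333333, the smallest that 2 against 2 libraries allow. The Ighg genes together made up 5.61% and 4.91% of heavy constant UMIs in siCont and 1.97% and 4.46% in siFXR1-LNA, and without the Jchain-rich barcodes these values were 4.73%, 3.32%, 2.51% and 5.19% and overlapped.

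Light chain class depended on which part of the transcript was counted. By constant genes, lambda (Iglc1, Iglc2 and Iglc3) took 80.3% and 77.3% of light constant UMIs in siCont and 72.2% and 67.9% in siFXR1-LNA. By variable genes, Iglv took 22.9% and 19.4% of light V UMIs in siCont and 19.7% and 6.94% in siFXR1-LNA. The constant genes therefore placed lambda above kappa in 4 of 4 libraries and the V genes placed kappa above lambda in 4 of 4. There were 13.6, 14.1, 5.13 and 14.3 Igkv UMIs for each Igkc UMI, but 0.989, 0.995, 0.486 and 0.505 Iglv UMIs for each Iglc UMI. UMIs were not divided by gene length, and how well each gene was captured was not tested, so these ratios serve to compare libraries and not to count molecules. The same mismatch was seen cell by cell. Of 2993 B cells called lambda by constant genes (at least 3 UMIs, at least 80% from Iglc genes, no thinning), 2249 (75.1%) were kappa and 399 (13.3%) were lambda by V genes. Only 56 cells were kappa by constant genes, and 52 of them were kappa by V genes.

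Igkc followed the V gene class, and Iglc2 did not. In cells called kappa by V genes (2844, 1961, 242 and 446 cells, Jchain-rich barcodes left out), Igkc stood at 337, 411, 498 and 332 CPM. In cells called lambda by V genes (315, 213, 21 and 33 cells), Igkc stood at 32.7, 56.9, 33.1 and 55.9 CPM, lower in each library and above the up to 5.26 CPM of barcodes with T cell markers. Iglc2 stood at 749, 801, 472 and 601 CPM in the kappa cells and at 714, 835, 512 and 824 CPM in the lambda cells, with the ranges of the classes overlapping. Barcodes with T cell markers held 2.54 to 4.21 CPM of Iglc2. Iglc3 was higher in kappa than in lambda cells in 3 of 4 libraries (450.4, 536, 278 and 401 against 308, 401, 298 and 286 CPM), and Iglc1 was higher in lambda cells in 4 of 4 (287, 333, 248 and 252 against 184, 202, 149 and 146 CPM). Iglv1, which is a V gene itself and so entered the split, stood at 1405 to 4583 CPM in the lambda cells and at 5.61 to 47.5 CPM in the kappa cells. Ighd was lower in the lambda cells of every library, at 96.4, 146, 182 and 203 CPM against 166, 326, 266 and 321 CPM in the kappa cells. Why the Iglc genes were counted in kappa cells was not tested.

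**Figure D2:**
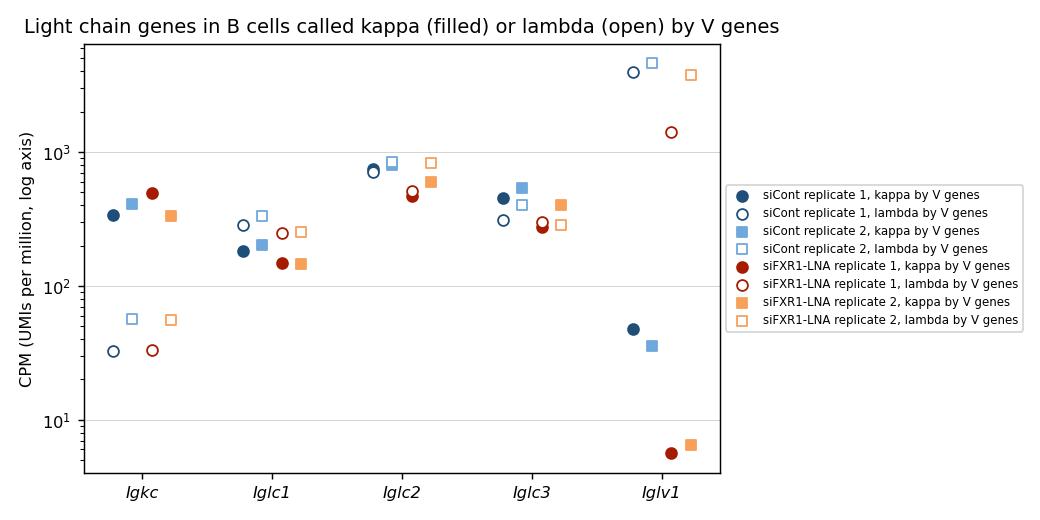
CPM (log axis) of Igkc, Iglc1, Iglc2, Iglc3 and Iglv1 in B cells called kappa (filled) or lambda (open) by their V genes, 1 symbol per library, Jchain-rich barcodes left out. Igkc and Iglv1 part the classes in every library, while Iglc2 stands at 472 to 835 CPM in both.

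Thinned to 1000 UMIs, lambda cells were 11.4% (262 of 2292), 10.0% (173 of 1726), 7.14% (8 of 112) and 8.39% (26 of 310) of cells called kappa or lambda by V genes, and 10.0%, 9.86%, 8.30% and 6.88% without thinning. Both siFXR1-LNA shares were below both siCont shares, with means of 7.76 ± 0.880% and 10.7 ± 0.996% (SD, n = 2 each, exact permutation p = 0.333333). The 95% exact binomial intervals of siFXR1-LNA, 3.13% to 13.6% and 5.55% to 12.0%, included the siCont values. These intervals cover counting error within a library only, and 2 against 2 libraries allow no smaller permutation p. Neither can decide whether the groups differ. No light V class could be given to 32.2% and 24.3% of thinned siCont B cells and to 76.2% and 44.4% of thinned siFXR1-LNA B cells. By constant genes, lambda cells were 16.3%, 18.0%, 5.44% and 12.8% of thinned B cells and mixed cells were 10.5%, 12.4%, 4.03% and 9.69%. Over 25 ratios and shares of this family, the smallest Benjamini-Hochberg adjusted exact permutation p was 0.555556.

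Among the lambda constant UMIs, Iglc2 made up 53.7% and 51.1% in siCont and 40.1% and 53.7% in siFXR1-LNA, and Iglc3 32.3%, 34.5%, 46.8% and 33.3%. The outlying siFXR1-LNA replicate 1 held a single barcode with 324 of its 626 Iglc3 UMIs. Without Jchain-rich barcodes the Iglc2 shares came to 54.5%, 52.3%, 53.6% and 53.4% and the Iglc3 shares to 31.4%, 33.3%, 30.3% and 33.5%. Iglc1 made up 14.0%, 14.4%, 13.1% and 13.0%, and 14.1%, 14.4%, 16.1% and 13.1% without those barcodes. Leaving them out thus brought the Iglc2 and Iglc3 shares of siFXR1-LNA replicate 1 close to the others and made its Iglc1 share the highest of the 4.

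Jchain was carried by very few barcodes. Its level in B cells was 116 and 210.0 CPM in siCont and 34.4 and 283 CPM in siFXR1-LNA, but it was detected in only 3.99%, 3.03%, 1.20% and 0.168% of B cells. Barcodes with T cell markers held it in 2.68% and 2.33% in siCont, and in 0 of 100 and 0 of 412 in siFXR1-LNA. Thinned to 1000 UMIs the shares were 1.74%, 1.15%, 0.806% and 0.170% of B cells, against 0.915% and 0.671% of T cell marker barcodes in siCont and none in siFXR1-LNA, which allows up to 3.00% and 0.732%. The thinned shares of both siFXR1-LNA libraries were thus within what the T cell marker barcodes allow. In siFXR1-LNA replicate 2 all 605 Jchain UMIs of B cells lay in 1 barcode. Across the series 26 barcodes held at least 10 Jchain UMIs (14, 9, 2 and 1 per library), and 22 of them were B cells by the rule. They held 87.6%, 94.7%, 86.3% and 100% of the Jchain UMIs of B cells. There were 7 further barcodes with 5 to 9 Jchain UMIs and 1399 with 1 to 4.

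These Jchain-rich barcodes had other features that their selection did not use. Mzb1 was present at 10 UMIs or more in 20 of 26, and Sdc1, a surface marker of plasma cells, was detected in 7. Ighm was the leading heavy constant gene in 20, Ighg2c in 4, Ighg2b in 1 and Igha in 1. Ighd was found in 3 of them. Immunoglobulin genes took between 2.57% and 58.6% of their UMIs. By V genes 7 were lambda, each led by Iglv1, and the others were kappa with various Igkv genes. In 3 barcodes of siCont replicate 1 the leading heavy gene was Ighg2c and the leading light V gene was Igkv5-48, with 907 to 1278 UMIs. Whether they stem from a single clone was not tested.

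The weight of these barcodes differed between the members. They held 14.0%, 21.8%, 27.6% and 19.9% of B cell Ighm UMIs, and 50.3%, 43.4%, 57.5% and 3.86% of Iglv1 UMIs. They held 13.9%, 21.96%, 10.5% and 45.2% of Igkc UMIs, but no more than 0.0504% of Ighd UMIs and 1.82% of Iglc2 UMIs. The largest single contributions to Iglv1 were 4019 of 12970 UMIs in siCont replicate 1 and 4566 of 10970 UMIs in siCont replicate 2.

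**Figure D3:**
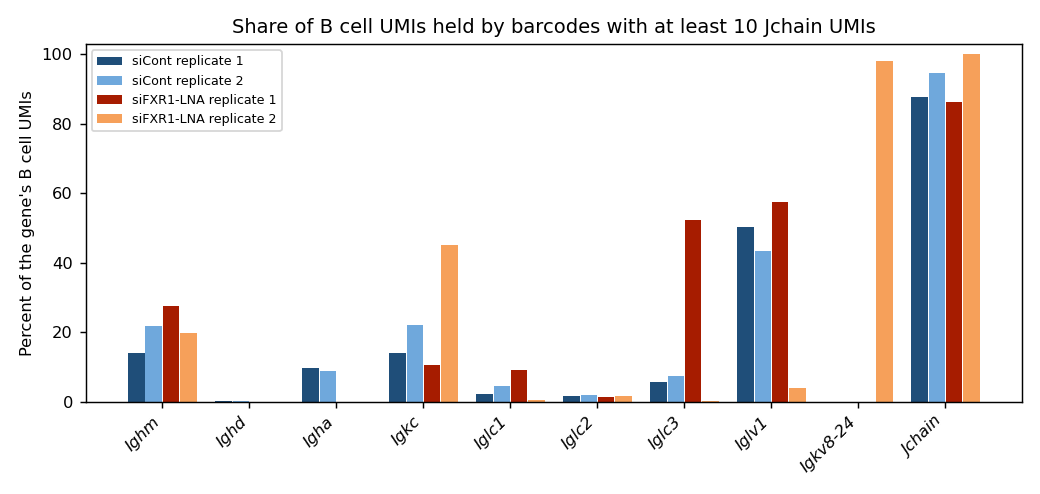
Percent of each gene's B cell UMIs that lay in barcodes with at least 10 Jchain UMIs, 1 bar per library. The bars reach 86.3% or more for Jchain in each library and 98.1% for Igkv8-24 in siFXR1-LNA replicate 2, and stay under 2% for Ighd and Iglc2.

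Igkv8-24, a kappa V gene, gave the clearest case of 1 barcode setting the level of a library. It stood at 66.1, 93.4 and 35.0 CPM in siCont replicates 1 and 2 and siFXR1-LNA replicate 1, and at 4048 CPM in siFXR1-LNA replicate 2. In the last library 8496 of 8662 UMIs lay in the Jchain-rich barcode, which held 19131 UMIs in all, with 383 of Ighm, 466 of Igkc and none of Ighd. Igkv8-24 was seen in 3.06%, 2.82%, 3.41% and 3.69% of B cells, and after thinning in 2.50%, 2.31%, 1.61% and 2.89%. Thinned barcodes with T cell markers held it in 1.22% and 0.112% in siCont and in none in siFXR1-LNA, which allows up to 3.00% and 0.732%. Without its Jchain-rich barcode siFXR1-LNA replicate 2 stood at 78.3 CPM, and the gene ranked 11 among Igkv genes there. With the Jchain-rich barcodes of the other libraries also left out, it ranked 17, 15 and 14 in them.

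Between the groups, no member passed the threshold in B cells. By edgeR (quasi-likelihood, Benjamini-Hochberg adjusted) 21 of 12903 genes were called (0.163%; 17 higher and 4 lower with siFXR1-LNA), and 0 of the 10 members. At an unadjusted p below 0.05 stood 1647 genes. The largest difference relative to its error was that of Iglv1, with a log2 fold change of -1.79 ± 0.22 (SE) and an adjusted p of 0.0608 (366 and 314 CPM against 1046 and 1141 CPM). Without Jchain-rich barcodes the Iglv1 change was -1.46 and its adjusted p 0.191, with 157 and 305 CPM against 524 and 652 CPM. Igha changed by -1.49 ± 0.28 (adjusted p = 0.131), Iglc1 by -0.81 ± 0.22 (adjusted p = 0.228), Iglc2 by -0.83 ± 0.26 (adjusted p = 0.294) and Iglc3 by -0.44 ± 0.24 (adjusted p = 0.507). Ighm, Ighd and Igkc differed by -0.10 ± 0.43, 0.12 ± 0.35 and -0.02 ± 0.27, less than their standard errors. The Igkv8-24 value of 4.55 ± 1.80 (adjusted p = 0.382) became -0.60 (adjusted p = 0.579) without the 22 Jchain-rich barcodes of the 4 libraries. The Jchain value was -0.16 ± 0.86 with all B cells and -2.72 (adjusted p = 0.345) without these barcodes, which were chosen by Jchain itself.

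Both siFXR1-LNA values lay below both siCont values for 5 members, Igha, Iglc1, Iglc2, Iglc3 and Iglv1, as they did for 18.9% of all genes tested, and for no member did they lie above, as they did for 29.4%. DESeq2 called 405 genes and of the members only Iglv1. With no filter on low counts edgeR called 1184 of 20992 genes. Among them were 5 members, Igha, Iglc1, Iglc2 and Iglv1 (lower) and Igkv8-24 (higher). With 1 library left out the log2 fold change of Iglv1 ran from -1.92 to -1.67.

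The other antibody and B cell genes showed few called changes in B cells. Of 89 measured kappa and lambda V genes 1 fell, Igkv4-91 (106, 75.0, 10.1 and 12.2 CPM, log2 fold change -3.12, adjusted p = 0.0329). The median log2 change of these 89 genes was -1.12, beside -0.02 over all genes tested. Of 76 heavy V genes 1 fell, Ighv12-3 (39.0, 31.4, 0.674 and 2.34 CPM, log2 fold change -4.52, adjusted p = 0.0481), and their median was -0.88. The 89 and 76 genes were those of 161 and 185 that passed the filter on low counts. The siCont B cells held 12396670 and 9614041 UMIs, against 1484481 and 2139903 in siFXR1-LNA. A V gene could thus pass through its siCont counts alone, and the part of this filter in both medians was not tested. For each heavy constant UMI there were 0.857, 0.886, 0.129 and 0.881 Ighv UMIs. The low library, siFXR1-LNA replicate 1, was also the lowest in Igkv UMIs for each Igkc UMI (5.13). The part of this library in the medians was not tested. Igkv1-110 (364, 376, 75.4 and 236 CPM) and Ighv1-22 (105, 173, 10.1 and 23.8 CPM), both abundant, had adjusted p of 0.353 and 0.0812. In siCont replicates 1 and 2 Ighv1-22 held 1300 and 1662 UMIs, first and second among Ighv genes. Without Jchain-rich barcodes it was not among the first 2, and the second gene, Ighv2-2, held 697 and 1029 UMIs. Part of the siCont level of Ighv1-22 thus lay in those barcodes. In heavy V gene Ighv1-52, with 3.79, 8.84, 0.674 and 305 CPM, siFXR1-LNA replicate 2 stood apart, and its leading place in that library (27.5% of Ighv UMIs) ended when the Jchain-rich barcode was left out.

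None of 12 pan-B genes, 6 B-1-type genes, 7 follicular-type genes, 10 measured plasma cell genes or 4 measured Ighg genes passed the threshold. Medians were -0.54 for the pan-B genes, -1.14 for the B-1-type genes, -0.56 for the follicular-type genes and -0.01 for the plasma cell genes. Of the pan-B genes 12 of 12 were below 0. This count and the pan-B median include Cd79a, Cd79b and Ms4a1, the genes of the B cell rule. Cd79a and Cd79b, the signalling partners of surface antibody that also define the B cells here, had values of -0.62 and -0.61 (adjusted p = 0.400 and 0.397). Fcrl5 (82.4, 105, 45.1 and 29.4 CPM) and Zbtb32 (55.9, 57.2, 20.9 and 28.0 CPM) had adjusted p of 0.160 and 0.120, and Ccr7 and Cxcr5 of 0.473 and 0.328. Mzb1 (383, 514, 265 and 299 CPM) had an adjusted p of 0.297, and Ighg2c (29.9, 34.6, 4.72 and 6.54 CPM) of 0.0595. Part of the siCont Ighg2c level lay in Jchain-rich barcodes. In siCont replicate 1, 3 of them held 42, 89 and 100 Ighg2c UMIs, and in replicate 2, 1 held 224. The Ighg2c change without these barcodes is not given here. Vpreb3, the only 1 of 7 precursor genes that passed the filter on low counts in B cells, stood at 83.3, 98.5, 97.0 and 143 CPM (adjusted p = 0.683).

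Outside B cells the members were at low levels that differed between the libraries. In barcodes without B marker UMIs, Ighm stood at 28.5 and 30.4 CPM in siCont and 8.69 and 10.5 CPM in siFXR1-LNA, Igkc at 3.64 and 4.02 against 1.10 and 0.730 CPM, and Iglc2 at 5.66 and 4.06 against 1.64 and 1.11 CPM. Iglv1 stood at 47.9 and 30.3 CPM against 1.03 and 0.397 CPM, and Jchain at 10.1 and 6.03 CPM against 0.368 and 0.0635 CPM. For 9 of 10 members both siFXR1-LNA values were below both siCont values, as for 13.4% of all genes tested, and only Ighd overlapped, while both lay above for 0 members, as for 40.2% of all genes tested (1.79 and 2.31 against 2.05 and 1.33 CPM). The B cell share of barcodes, 10.3% and 9.87% against 0.918% and 3.53%, was also higher in the siCont libraries, and its part in this difference was not tested. edgeR's quasi-likelihood test called 0 of 17221 genes (0%) in these barcodes, with 3173 at an unadjusted p below 0.05, while DESeq2 called 1701. The 10 members had log2 fold changes of -0.68 (Ighd) to -6.07 (Iglv1) and adjusted p of 0.138 to 0.513 in edgeR, and DESeq2 called 8 of them.

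**Figure D4:**
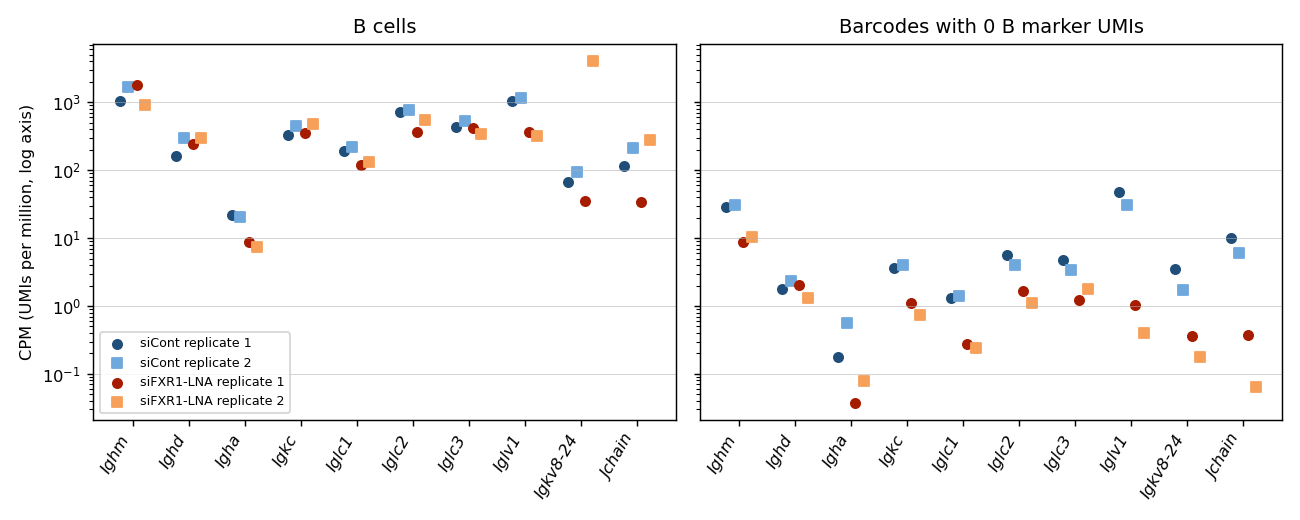
CPM (log axis) of the 10 genes in B cells (left) and in barcodes without B marker UMIs (right), 1 symbol per library. On the left the groups overlap for 5 of 10 genes, while on the right both siFXR1-LNA libraries lie below both siCont libraries for 9 of 10 genes.

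The level outside B cells was 0.00431% to 8.71% of the B cell level, depending on gene and library. For Ighm it was 2.75%, 1.81%, 0.477% and 1.17%, and for Iglv1 4.58%, 2.65%, 0.281% and 0.126%. The mix of members outside B cells was not that of B cells in the siCont libraries. With Jchain-rich barcodes left out of both, Jchain gave 32.6 and 20.9 UMIs per 100 Ighm UMIs outside B cells in siCont against 1.62 and 0.854 in B cells, and 68.2 and 56.4 within the Jchain-rich barcodes. Ighd gave 6.40 and 8.43 UMIs per 100 Ighm UMIs outside B cells in siCont against 18.0 and 22.6 in B cells, and 0.0498 and 0.0458 in the Jchain-rich barcodes. In siCont the barcodes outside B cells stood between the B cells and the Jchain-rich barcodes in these 2 ratios. Igkc did not follow this order, with 12.7 and 14.7 UMIs per 100 Ighm UMIs outside B cells in siCont, below both B cells (32.2 and 26.4) and Jchain-rich barcodes (28.9 and 25.5). Igkv8-24 in siCont replicate 1 did not either (12.8 outside, 7.44 in B cells and none in Jchain-rich barcodes). In siFXR1-LNA the Jchain ratio was 4.23 and 0.602 outside B cells, against 0.358 and 0 in B cells. The Ighd ratio there was 23.6 and 12.7 outside B cells against 18.6 and 40.7 in B cells, above the B cells in replicate 1.

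By marker class, Ighm was highest in B cells (901 to 1821 CPM), followed by the 7 or 8 barcodes per library with plasmacytoid dendritic cell markers (217 to 659.8 CPM, 6 to 18 UMIs) and by barcodes with 1 or 2 B marker UMIs (50.2 to 187 CPM). These 3 ranges did not overlap. Barcodes with T cell markers held 37.2 to 62.5 CPM, overlapping the last of these, and with macrophage markers 4.23 to 29.9 CPM. Erythroid barcodes held 15.6, 16.2, 5.20 and 1.68 CPM. Iglv1 in siCont was higher in erythroid barcodes (62.3 and 27.1 CPM) than with T cell markers (35.8 and 22.1 CPM) or macrophage markers (20.2 and 7.37 CPM). In siFXR1-LNA Iglv1 was at 0.732 and 0.773 CPM in erythroid and 0.261 and 0.254 CPM in macrophage marker barcodes, and no UMI was found with T cell markers, which allows up to 12.1 and 2.54 CPM.

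The change between groups differed between B cells and other barcodes for 6 of the 10 members, where 76 of 17267 genes (0.44%) passed the test of the difference. In this edgeR quasi-likelihood test of the group-by-class term, with the library as a block, a positive value means that siFXR1-LNA was relatively lower outside B cells. The difference of log2 fold changes was 4.43 ± 0.34 (SE) for Iglv1 (adjusted p = 3.36e-05), 2.48 ± 0.31 for Igkc (adjusted p = 0.00422) and 2.03 ± 0.30 for Iglc1 (adjusted p = 0.00825). It was 4.76 ± 0.84 for Jchain (adjusted p = 0.0246), 1.93 ± 0.35 for Ighm (adjusted p = 0.0286) and 1.48 ± 0.30 for Iglc3 (adjusted p = 0.0437). Igkv8-24 (adjusted p = 0.0926), Iglc2 (0.102), Ighd (0.342) and Igha (0.804) did not pass, and all 10 values were positive. Among the other lists, 1 of 12 pan-B genes passed, Cd72, a receptor of B cells, with a difference of 2.92 ± 0.35 (adjusted p = 0.00422), and 11 of 99 kappa and lambda V genes passed, all positive. Satb1 (1.65, adjusted p = 0.0311) was the 1 of 7 follicular-type genes and Mzb1 (1.38, adjusted p = 0.0333) the 1 of 10 plasma cell genes that passed. Bhlhe41, of the 6 B-1-type genes, passed in the other direction (-2.26, adjusted p = 0.00825). Of 93 heavy V genes Ighv1-26 (3.18, adjusted p = 0.0407) and Ighv1-58 (-5.90, adjusted p = 0.0175) passed. Without barcodes of another marker class 9 members passed, with Ighd (adjusted p = 0.0162), Iglc2 (0.00148) and Igkv8-24 (3.14e-06) added. Over all genes more passed there too than the 76 above, as given further on. DESeq2 called 5 members, without Jchain (adjusted p = 0.473), and with hemoglobin genes left out Iglc3 was lost (adjusted p = 0.0637). Without siFXR1-LNA replicate 1 the calls were Iglv1 and Igkv8-24, and without replicate 2 there were none. Without Jchain-rich barcodes 5 members passed, with Igkv8-24 in place of Iglc3 and Jchain, and with at least 500 genes per barcode only Iglv1 did. Counts over all genes are not given here for DESeq2, without hemoglobin genes, without Jchain-rich barcodes or with at least 500 genes. The member counts under these settings can therefore not be set beside a share of all genes.

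**Figure D5:**
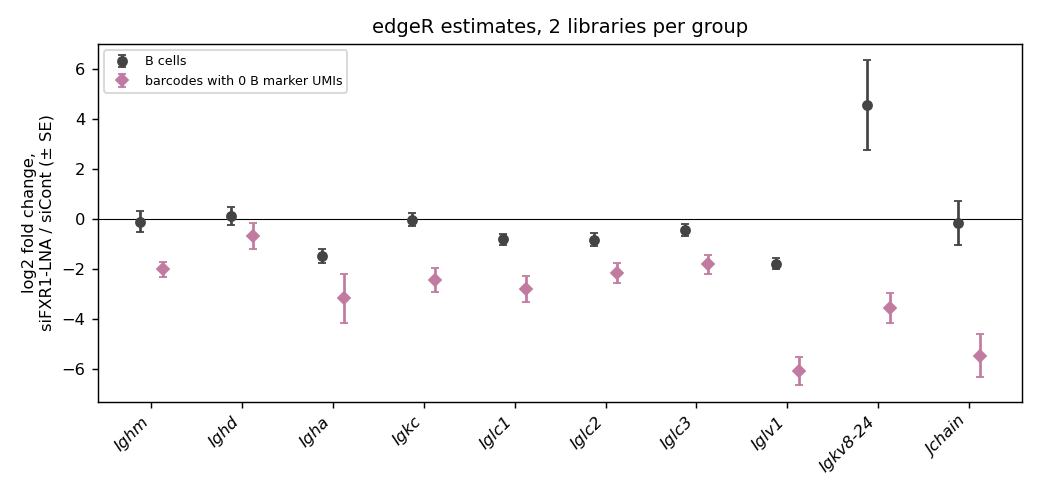
Log2 fold change of siFXR1-LNA over siCont libraries with its standard error (edgeR, 2 libraries per group) for the 10 genes, in B cells (circles) and in barcodes without B marker UMIs (diamonds). The diamonds run from -0.68 for Ighd to -6.07 for Iglv1, and the diamond lies below the circle of each gene.

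Genes outside the immunoglobulin families that ran most alike to the members were mostly B cell genes. Over 32 sums (barcode classes by library, which share libraries and cover both B cells and cells that lack these genes), the Pearson r of log2(CPM + 1) was highest for Mzb1 (0.971) and Cd22 (0.961) with Igkc and for Pax5 (0.963), Ebf1 (0.960) and Pou2af1 (0.955) with Ighd. For Ighm it was highest for Btla (0.902), an inhibitory receptor of lymphocytes, and for Jchain for Tnfrsf13c (0.892), the receptor of the survival factor BAFF. As a point of comparison, Cd79a gave 0.828 with Ighm, 0.937 with Igkc and 0.773 with Jchain. Cd79a is a gene of the B cell rule, so by that rule it was absent from every sum except those of B cells. Since the sums set B cells apart in this way, high values for B cell genes followed from how the sums were made. These are descriptions of sums that share their libraries, with no test.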

How the data were processed

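Ascites of mice with Br-Luc tumors was profiled with 10x Genomics droplets in 4 libraries, 2 per group. The deposited values are raw UMI counts of each gene in each barcode, made by the authors per the labels with Cell Ranger 7.0.0 on mm10. The labels name a 3′ v2 kit and the study another version, and the chemistry was not settled here. The study states that a siFXR1-LNA replicate was left out of its analysis without naming it, so all 4 libraries were used. The matrices held 101500063, 88346685, 113606837 and 78179267 UMIs.

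The limits of the study's methods were applied to barcodes (100 to 4800 genes, mitochondrial UMIs up to 15%). No doublet caller was run. Counts were summed per library over B cells and over barcodes without B marker UMIs, and tested with edgeR 4.0.16 in R 4.3.3 (TMM, filterByExpr, quasi-likelihood, Benjamini-Hochberg, threshold 0.05), between groups and as a group-by-class difference with the library as a block. The code was tested on simulated data. A lambda or kappa cell had at least 3 light chain UMIs and at least 80% of 1 kind, and cells were thinned to 1000 UMIs for shares, leaving out 54, 50, 3 and 8 shallower B cells. CPM are UMIs in 1000000 UMIs of the class. Exact binomial intervals and exact permutation tests used scipy 1.17.1, and sequences were aligned with Biopython 1.88. Totals per library and cell limit precision, and intervals cover counting error only. Libraries of a group differed far beyond sampling noise, so none was a repeat deposit.

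The 10 genes, the gene lists, the tests and the alternatives were chosen with earlier results of these data known. Named genes were the 10 genes, from each list up to 4 of highest mean CPM in B cells and up to 4 more past the threshold, and the 3 genes most alike by correlation, of which some are given. Genes compared between Ighd classes and genes that stood out in single barcodes were named after their values were seen. Some genes of the lists are not reported here by name. Alternatives were DESeq2 1.42.0, no filter on low counts, hemoglobin genes left out, the replicate number as a block, each library left out, other B cell limits, other thinning and the level of T cell marker barcodes subtracted. Barcodes with at least 10 Jchain UMIs were left out, and V genes used for light chains, as alternatives added after seeing the data.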

Additional observations from a re-analysis of the deposited data

Results flagged for a closer look

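For 6 genes the change between the groups differed between B cells and barcodes without B marker UMIs by the edgeR group-by-class term. The differences of log2 fold changes were 4.76 for Jchain, 4.43 for Iglv1, 2.48 for Igkc, 2.03 for Iglc1, 1.93 for Ighm and 1.48 for Iglc3. Without siFXR1-LNA replicate 2 none of them was called, and without replicate 1 only Iglv1 was. With 1 library left out the Jchain value ran from 2.57 to 7.96, and DESeq2 did not call Jchain (adjusted p = 0.473). Iglc3 was not called with hemoglobin genes left out (adjusted p = 0.0637). Without Jchain-rich barcodes neither Jchain (adjusted p = 0.163) nor Iglc3 (0.0999) was called. For each of the 6 genes the libraries labelled siFXR1-LNA stood lower relative to siCont outside B cells than within them. B cells were also a smaller share of barcodes in these libraries (0.918% and 3.53% against 10.3% and 9.87%), and the part of this in the differences was not tested.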

How the results depend on the processing

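In the B cell test, where 21 genes were called, the count was 405 with DESeq2, 1184 with no filter on low counts, 11 and 12 with at least 2 and at least 5 B marker UMIs, 69 without barcodes of another marker class, and 0 to 737 when 1 library was left out (737 and 267 without siCont replicates 1 and 2, 0 without either siFXR1-LNA library). Outside B cells, where 0 were called, it was 1701 with DESeq2, 534 with no filter and 0 to 1003 with 1 library left out (1003 and 575 without siCont replicates 1 and 2). For the difference (76) it was 226 with no filter, 418 without barcodes of another marker class, 118 with no upper limit on genes and 0 to 217 with 1 library left out (217 without siCont replicate 1, 3 and 0 without siFXR1-LNA replicates 1 and 2). Of 360 values of single members under alternatives, 262 kept direction and side of the threshold, 59 gained the threshold, 23 lost it and 16 changed sign.

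The replicate numbers were not shown to pair the libraries: the labels name no shared batch and each group has only 2. With the replicate number as a block, 1453 of 12903 genes were called in B cells, Igha, Iglc1, Iglc2, Iglv1 and Igkv8-24 among them. Outside B cells it was 4231 of 17221 genes, with 9 of 10 members (not Ighd). Many genes of all kinds were thus called under this setting. Deviations of same-numbered libraries correlated across genes at 0.334 in B cells and 0.594 outside.

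Changes of sign were all in the B cell test, and none of these values passed the threshold. With at least 5 B marker UMIs the log2 fold change was 0.084 for Ighm, 0.052 for Igkc and 0.15 for Jchain. Without barcodes of another marker class it was 0.31 for Igkc and 0.47 for Jchain. It was 0.0020 for Igkc with DESeq2 and -0.60 for Igkv8-24 without Jchain-rich barcodes. With 1 library left out it ran from -0.72 to 0.33 for Ighm, from -0.29 to 0.68 for Ighd, from -0.26 to 0.25 for Igkc, from -1.28 to 5.54 for Igkv8-24 and from -2.35 to 0.66 for Jchain. Igkv8-24 turned to -1.28 without siFXR1-LNA replicate 2.

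Of 152 alternatives for ratios, shares and levels outside B cells, 140 moved the difference of group means (siFXR1-LNA minus siCont) by less than 1 SD between replicates. The others, in percentage points, were -0.17 for the Ighg share without Jchain-rich barcodes, -13.9 for the lambda share of constant UMIs without barcodes of another class, -1.47 (at least 5 B marker UMIs), 0.41 (without barcodes of another class) and 0.38 (without Jchain-rich barcodes) for the Iglc1 share, -16.7 without thinning and -2.57 at 500 UMIs for lambda cells by constant genes, and -0.79 at 500 UMIs for lambda cells by V genes. With hemoglobin left out of the totals, the level outside B cells relative to B cells differed by -2.38 for Ighm, -1.20 for Igkc, -0.59 for Iglc2 and -4.93 for Iglv1. With 2 pools per group an exact test cannot pass 0.05, the 499 and 596 B cells of siFXR1-LNA limit shares, and 13 and 16 UMIs limit Igha.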

Other observations

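Barcodes with markers of plasmacytoid dendritic cells, an interferon-producing blood cell type, and without B marker UMIs held Ighm and Iglc3, while the other members were at 0 to 2 UMIs per library. There were 7, 7, 8 and 7 such barcodes per library. Ighm was detected in 57.1%, 85.7%, 75.0% and 85.7% of them, with 217, 397, 659.8 and 538 CPM, or 6, 15, 18 and 17 UMIs, which is 20.96%, 23.6%, 36.2% and 59.7% of the B cell level. Iglc3 was detected in 28.6%, 57.1%, 62.5% and 71.4%, with 217, 477, 219.9 and 632 CPM, or 49.6%, 91.4%, 52.2% and 186% of the B cell level. No Igkc UMI was found in them, which allows up to 79.4 to 110.0 CPM, and Iglc2 had 1, 0, 1 and 0 UMIs. In barcodes with T cell markers Iglc3 stood at 8.94, 2.81, 0 (which allows up to 12.1) and 0.846 CPM. With so few barcodes these values are given without a test.

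Gm30211, the noncoding gene whose span holds Igkc, was counted in B cells at 256, 353, 176 and 301 CPM, and in 41.9%, 52.5%, 29.9% and 42.6% of them. The antisense gene 2010309G21Rik stood at 79.5, 104, 31.0 and 45.8 CPM. A single siCont replicate 2 barcode held 205 of its 996 UMIs in that library.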
